A study of Mus musculus with 6 samples.

Results

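The guanylate-binding proteins (GBPs) are a family of large GTPases. The genes examined were the 10 rows of the count table with the symbols Gbp2, Gbp2b, Gbp3, Gbp4, Gbp5, Gbp6, Gbp7, Gbp8, Gbp9 and Gbp10, out of 55487 genes. All 10 had reads in every tumor and passed the filter on low counts. The table held 2 more rows with a Gbp symbol, Gbp11 and the pseudogene Gbp2-ps, which are given separately.

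RNA was sequenced from 6 whole subcutaneous tumors of CT26.WT, a carcinoma line from the colon of BALB/c mice, and the GBPs were compared between 3 control tumors and 3 tumors of mice given interferon-γ (IFN-γ). The hosts were immunocompetent wild-type male BALB/c mice, 4 weeks old, injected under the skin with CT26.WT cells. Per the methods, IFN-γ was injected into the tail vein every 48 h, as 100 µL of the recombinant mouse protein at 100 ng/ml, and PBS was injected by the same route in the control group. A whole tumor holds host cells beside the implanted line, so more or fewer cells of a type and more or less RNA per cell cannot be told apart. The labels do not say that each tumor came from a separate mouse, and p-values measure the spread between these tumors only. The comparison describes how gene expression differed between tumors of immunocompetent mice with and without repeated IFN-γ in the blood.

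GBPs are among the genes that IFN-γ induces most strongly in many cell types, macrophages included. IFN-γ binds its receptor, JAK kinases activate transcription factors that bind GAS elements, and interferon regulatory factors such as IRF1 then act on ISRE elements. GBP proteins assemble on pathogen vacuoles and on bacteria in the cytosol and promote inflammasome activation. Gbp2, Gbp2b and Gbp5 carry a signal for prenylation, a lipid anchor, at their C-terminal end.

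The 10 genes lie in 2 clusters of the mouse genome (GRCm38, GENCODE M21 gene models). Gbp5, Gbp7, Gbp3, Gbp2b and Gbp2 follow each other on the plus strand of chromosome 3, from position 142493978 to 142638008. Gbp8, Gbp9, Gbp4, Gbp10 and Gbp6 lie on the minus strand of chromosome 5, from position 105014150 to 105293698. RefSeq promoter windows of 300 bases (GRCm38.p6) matched 5 of the 10 genes, those on chromosome 3, and Gbp4, Gbp6, Gbp8, Gbp9 and Gbp10 had no entry. The windows were searched on both strands for the ISRE core GAAANNGAA and the GAS element TTCNNNGAA. All 5 windows held the ISRE core, against 8.56% of the 32851 promoters in the set. The windows of Gbp7 and Gbp5 each held it beside a pair of GAS matches that it does not overlap. The matches are shown, with their flanks, because all 5 windows held this element. Its part in the levels was not tested. Capitals mark the core, which reads as its reverse complement on the plus strand.
Gbp5: cttgtgtagtTTCAATTTCagtttagaga
Gbp7: tgtgtgcagtTTCAGTTTCagttctccat
Gbp3: aggacacagtTTCAGTTTCtatttcccag
Gbp2b: tacttctaatTTCACTTTCttctttatca
Gbp2: ctcttttagtTTCACTTTCactgtcttaa
The 29 bases shown lie at chr3:142496760-142496788 for Gbp5, chr3:142530274-142530302 for Gbp7, chr3:142559990-142560018 for Gbp3, chr3:142594701-142594729 for Gbp2b and chr3:142620595-142620623 for Gbp2, all on the plus strand. The core began 164, 52, 44, 136 and 58 bases before the RefSeq start site, in that order. Gbp2b and Gbp2 had the same 9 letters, as did Gbp7 and Gbp3. Gbp3 held a further core match 6 bases downstream that overlaps the first. For Gbp5 and Gbp2, GENCODE M21 lists a transcript that starts further upstream, so that their matches lie inside a longer gene model.

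GAS matches were present in the windows of Gbp5 and Gbp7 and in 8.30% of all promoters, and both elements together in 1.07% of all promoters. In the Gbp5 window the GAS matches were at -245 and -52 from the start site and the ISRE core at -164. The 150 bases before the start site of Gbp7 (chr3:142530186-142530335, plus strand) are shown as an example that holds both elements. The capitals mark in order the GAS matches at positions -106 and -87 from the start site and the ISRE core at -52.
Gbp7 promoter: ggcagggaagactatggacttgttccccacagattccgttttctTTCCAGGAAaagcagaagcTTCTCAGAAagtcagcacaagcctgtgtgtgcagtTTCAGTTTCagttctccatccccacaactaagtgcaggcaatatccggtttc
A match of letters is no evidence that a factor bound there in these tumors, and a looser GAS form, TTNCNNNAA, was found in 36.6% of all promoters.

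Libraries had 15759300 to 17559680 counts on genes. Levels are given as CPM, read counts scaled to a common library size with TMM factors, and 3 counts correspond to 0.169 to 0.187 CPM. IFN-γ tumor 3 stood apart from the other IFN-γ tumors. Its GBP levels were within or below the range of the controls, its summed skin markers were 7.59 times the control mean, and its summed T cell markers were 0.606 times the control mean. The study's own figure legend names fewer IFN-γ tumors than were deposited and does not say which. The GBP genes and the named genes of the pathway lists are therefore given with and without this tumor. The labelled cell type was checked against 7 epithelial carcinoma markers, which were low in all 6 tumors. Their sum lay between 9.51 and 23.0 CPM, Epcam between 0.0571 and 0.926 CPM, and Cldn7 was at 0 in 5 tumors and at 0.0563 CPM in control tumor 2.

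As a family, the 10 genes had a summed level of 984, 1800 and 1385 CPM in control tumors 1, 2 and 3. In the IFN-γ group, tumors 1 and 2 reached 3152 and 3135 CPM and tumor 3 had 1350 CPM. IFN-γ tumors 1 and 2 thus held 2.27 and 2.26 times the control mean of 1390 ± 408 CPM (SD, n = 3), whereas IFN-γ tumor 3 held 0.971 times this mean. The mean of the IFN-γ group was 2546 ± 1036 CPM (SD, n = 3), and the groups overlapped. GBP transcripts made up at most 0.184% of all counts in a control tumor and 0.317% in IFN-γ tumor 1. The chromosome 5 genes supplied 22.4% to 25.4% of the family's CPM in the 6 tumors.

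The order of the tumors was nearly the same for every gene. IFN-γ tumors 1 and 2 were above every control tumor for 10 of 10 genes, which held for 18.1% of all genes tested. IFN-γ tumor 3 was above every control for 0 of 10 genes. It lay within the control range for 9, and for Gbp7 it was below all controls. Among controls, tumor 2 was highest for 10 of 10 genes, and control tumor 1 was the lowest of all 6 tumors for 8 of 10.

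**Figure D1:**
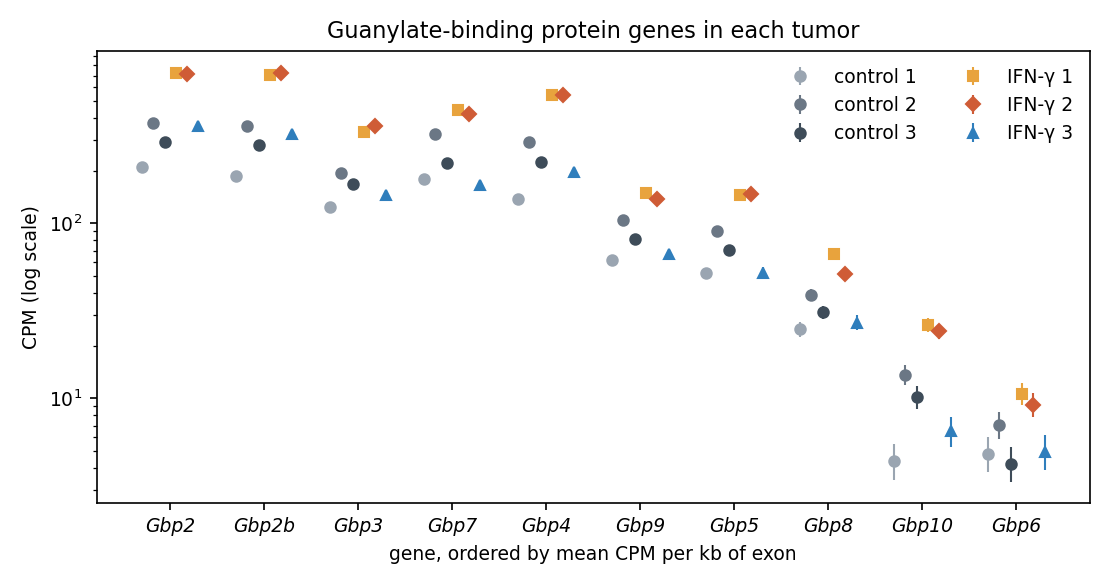
CPM of the 10 GBP genes (log axis) in each of the 6 tumors; points are single tumors and bars are 95% Poisson intervals, which cover counting error only. For each gene IFN-γ tumors 1 and 2 lie above the 3 controls, and IFN-γ tumor 3 lies above the highest control for none of them.

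With all 6 tumors, 0 of the 10 genes differed between the groups at an adjusted p under 0.05 (edgeR quasi-likelihood test, Benjamini-Hochberg over 15114 genes), where 0.0794% of all genes were called higher. DESeq2 and limma-voom also called 0 of the 10, where they called 125 and 10 of 15114 genes higher. By each, 2 of the 10 had an unadjusted p under 0.05, but the share over all genes was not computed for these methods. All 10 log2 fold changes were above 0, from 0.51 for Gbp7 to 1.08 for Gbp2b, with a median of 0.74 against 0.0015 over all genes tested. Their adjusted p ranged from 0.304 for Gbp2 to 0.681 for Gbp7. An unadjusted p under 0.05 was reached by 4 genes, Gbp2, Gbp2b, Gbp3 and Gbp4, and in the higher direction by 5.74% of all genes.

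Without IFN-γ tumor 3, 6 of the 10 genes were called higher (edgeR, 15487 genes), where 2.46% of all genes were. These were Gbp2, Gbp2b, Gbp3, Gbp4, Gbp5 and Gbp8. The tumor was set aside partly on its GBP levels, the values then tested, so the calls and p-values without it, here and below, describe the remaining 5 tumors and are no independent evidence of a difference between the groups. The other 4, Gbp6, Gbp7, Gbp9 and Gbp10, had adjusted p from 0.0594 to 0.0980. The median log2 fold change was 1.06, against -0.016 over all genes tested, and the range was 0.79 for Gbp9 to 1.41 for Gbp10.

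**Figure D2:**
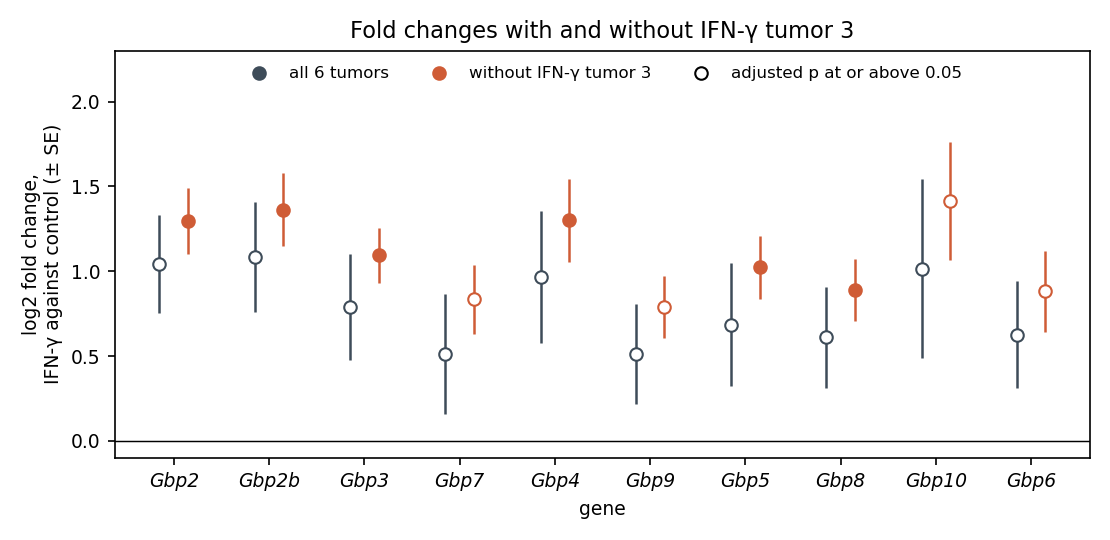
Log2 fold change of each GBP gene, IFN-γ group against control, with its standard error, for all 6 tumors (dark) and without IFN-γ tumor 3 (orange); filled points have an adjusted p under 0.05. All 20 estimates lie above 0, and the 6 filled points belong to Gbp2, Gbp2b, Gbp3, Gbp4, Gbp5 and Gbp8 without IFN-γ tumor 3.

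Among the prenylated members, Gbp2 and Gbp2b were the most abundant per kilobase of exon. Gbp2, which coats vacuoles of Toxoplasma, was at 209, 376 and 293 CPM in the control tumors, against 727, 719 and 360 CPM after IFN-γ (tumors 1, 2 and 3). IFN-γ tumors 1 and 2 were the high samples, whereas the third fell just under the highest control. Its log2 fold change was 1.04 ± 0.29 (SE; edgeR adjusted p = 0.304) with all tumors and 1.30 ± 0.20 (adjusted p = 0.0164) without IFN-γ tumor 3.

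Gbp2b, the neighbour of Gbp2 and earlier called Gbp1, was at 187, 361 and 281 CPM in the controls and at 708, 722 and 323 CPM in the IFN-γ tumors. The pattern over tumors was that of Gbp2, with a Pearson r of 0.999 over 6 tumors. Its log2 fold change was 1.08 ± 0.32 (edgeR adjusted p = 0.343), or 1.36 ± 0.22 (adjusted p = 0.0192) without IFN-γ tumor 3. The coding sequences of the pair are 82.5% identical, and at most 2.03% of their 50-base stretches also occur in another transcript.

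Gbp5, which promotes activation of the NLRP3 inflammasome, was less abundant per kilobase. It was at 52.1, 90.5 and 70.9 CPM in the controls and at 145, 146 and 52.4 CPM in the IFN-γ tumors. IFN-γ tumor 3 was level with the lowest control. The log2 fold change was 0.69 ± 0.36 (edgeR adjusted p = 0.565), or 1.02 ± 0.18 (adjusted p = 0.0255) without IFN-γ tumor 3.

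The other chromosome 3 genes were Gbp3 and Gbp7, which also accumulate at Toxoplasma vacuoles. Gbp3 was at 123, 194 and 167 CPM in the controls and at 332, 362 and 145 CPM in the IFN-γ tumors. Its log2 fold change was 0.79 ± 0.31 (edgeR adjusted p = 0.440), or 1.09 ± 0.16 (adjusted p = 0.0161) without IFN-γ tumor 3, the smallest adjusted p among the 10 genes. Gbp7, which aids assembly of the phagocyte NADPH oxidase, was at 180, 322 and 221 CPM in the controls and at 446, 420 and 166 CPM in the IFN-γ tumors. IFN-γ tumors 1 and 2 were above every control, and IFN-γ tumor 3 was the lowest of the 6 tumors. The log2 fold change of Gbp7 was 0.51 ± 0.35 (edgeR adjusted p = 0.681) and 0.83 ± 0.20 without IFN-γ tumor 3, where it still missed the threshold (adjusted p = 0.0687). In the annotation 11.4% of the exon bases of Gbp7 are shared with the gene model Gm43802, which had 0 counts in these tumors.

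On chromosome 5, Gbp4 was the most abundant per kilobase. It was at 138, 293 and 226 CPM in the controls, against 541, 544 and 197 CPM in the IFN-γ tumors. IFN-γ tumors 1 and 2 were nearly equal, and IFN-γ tumor 3 fell between control tumors 1 and 3. The log2 fold change was 0.97 ± 0.39 (edgeR adjusted p = 0.448), or 1.30 ± 0.24 (adjusted p = 0.0296) without IFN-γ tumor 3.

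Gbp8 and Gbp9 overlap Gbp4 in the annotation and share at most 61 exon bases with it and each other. Their sequences are nevertheless alike, with coding sequences 92.9% and 90.2% identical to that of Gbp4. Of the 50-base stretches of Gbp8, Gbp9 and Gbp4, 18.1%, 8.05% and 7.78% also occur in another transcript. Some of their reads could thus be assigned wrongly. Gbp8 was at 24.8, 39.1 and 31.1 CPM in the controls and at 66.8, 51.2 and 27.1 CPM in the IFN-γ tumors. Gbp9, another protein found at Toxoplasma vacuoles, was at 61.4, 105 and 81.2 CPM in the controls and at 150, 137 and 66.6 CPM in the IFN-γ tumors. For both, IFN-γ tumor 1 was highest and IFN-γ tumor 3 was second lowest. When IFN-γ tumor 3 was left out, the log2 fold change was 0.89 ± 0.18 for Gbp8 (edgeR adjusted p = 0.0398). For Gbp9 it was 0.79 ± 0.18 (edgeR adjusted p = 0.0594), just outside the threshold. With all tumors the values were 0.61 ± 0.30 and 0.51 ± 0.29 (edgeR adjusted p = 0.534 and 0.605).

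Gbp10 and Gbp6 had the fewest reads and are uncertain as separate genes. Their coding sequences are 98.4% identical, and 84.1% of the 50-base stretches of Gbp10 and 70.7% of those of Gbp6 also occur in another transcript. The gene model Gm43302 shares 46.3% of the exon bases of Gbp10 and 29.0% of those of Gbp6, and it had 1 count in the 6 tumors together. Gbp10 was at 4.37, 13.6 and 10.2 CPM in the controls and at 26.3, 24.3 and 6.48 CPM in the IFN-γ tumors. It had the widest control spread, 3.12-fold from the lowest to the highest, against 1.57-fold to 2.13-fold for the other 9 genes. In control tumor 1, Gbp10 had 70 counts, which gave a 95% Poisson interval of 3.41 to 5.52 CPM. The interval covers counting error only and does not reach the other controls. Gbp6 was at 4.81, 7.04 and 4.22 CPM in the controls and at 10.7, 9.21 and 4.94 CPM in the IFN-γ tumors. When IFN-γ tumor 3 was left out, the log2 fold change was 1.41 ± 0.35 for Gbp10 (edgeR adjusted p = 0.0709), the largest estimate of the family, and 0.88 ± 0.24 for Gbp6 (adjusted p = 0.0980). With all tumors it was 1.02 ± 0.53 and 0.63 ± 0.31 (edgeR adjusted p = 0.563 and 0.547).

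The next gene on chromosome 5, Gbp11, is annotated as a polymorphic pseudogene and is no member. It was read 39, 69 and 100 times in the controls, against 175, 205 and 39 counts in the IFN-γ tumors. As for the members, IFN-γ tumors 1 and 2 were above every control. Unlike for the members, control tumor 3 was the highest control. The log2 fold change of Gbp11 was 1.06 ± 0.54 (edgeR adjusted p = 0.558), or 1.48 ± 0.30 (adjusted p = 0.0394) without IFN-γ tumor 3. Gbp2-ps had 0 counts in all 6 libraries.

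Levels between genes were compared as CPM per kilobase of GENCODE exon. In the control group, the levels per kilobase were 116 ± 33.2 for Gbp2, 97.8 ± 30.9 for Gbp2b, 49.5 ± 10.9 for Gbp3, 43.0 ± 13.0 for Gbp7 and 29.2 ± 10.4 for Gbp4 (SD, n = 3). Then followed Gbp9 with 15.9 ± 4.18, Gbp5 with 10.7 ± 2.90, Gbp8 with 9.19 ± 2.08, Gbp10 with 2.42 ± 1.21 and Gbp6 with 0.900 ± 0.249 (SD, n = 3). The order of the 10 genes was the same in each of the 6 tumors. The means of Gbp2 and Gbp2b, of Gbp3 and Gbp7, and of Gbp5 and Gbp8 differed by less than the larger of the pair's SDs over tumors in both groups. In the IFN-γ group the same was true of Gbp7 and Gbp4 and of Gbp9 and Gbp5. Within the family, Gbp2 and Gbp2b were thus the highest and Gbp10 and Gbp6 the lowest in controls and IFN-γ tumors alike.

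The shares in the family's summed level per kilobase did not overlap between the groups, IFN-γ tumor 3 included, for 6 of the 10 genes. The share of Gbp2 was 31.2%, 30.9% and 31.0% in the control tumors and 33.2%, 32.8% and 36.7% in the IFN-γ tumors. The share of Gbp2b was 24.9%, 26.5% and 26.5% in the controls, against 28.8%, 29.4% and 29.4% in the IFN-γ tumors. For both genes, each IFN-γ tumor was above every control. The share of Gbp7 was 12.1%, 11.9% and 10.5% in the controls, against 9.11%, 8.58% and 7.61% in the IFN-γ tumors. The share of Gbp9 was 4.46%, 4.19% and 4.18% in the controls, against 3.32%, 3.04% and 3.31% in the IFN-γ tumors. Gbp7 and Gbp9, and likewise Gbp5 and Gbp8, had a lower share in each IFN-γ tumor than in every control. Gbp3, Gbp4, Gbp6 and Gbp10 overlapped between the groups. Shares add up to a whole, so a higher share of one gene lowers the others, and the 6 are not independent. The same 6 genes were apart when plain CPM was used. This count has no counterpart over all genes, and it is a description.

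A ratio of one gene to another does not depend on the other members. The log2 ratio of the CPM of Gbp2 to that of Gbp7 was 0.21, 0.22 and 0.41 in the control tumors and 0.71, 0.78 and 1.11 in the IFN-γ tumors. Group means were 0.28 ± 0.11 and 0.87 ± 0.22 (SD, n = 3), and the difference was 0.59. It stayed between 0.46 and 0.67 when any 1 tumor was left out. The groups did not overlap for 14 of the 45 pairs of GBP genes, and for 10 of the 17 pairs with Gbp2 or Gbp2b, where this held for 16.8% of all pairs of genes at 5 CPM or more. Pairs that share a gene are not independent. This pattern was chosen after its values were seen and was not tested further, since 3 tumors against 3 cannot go below p = 0.1 in an exact permutation test.

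**Figure D3:**
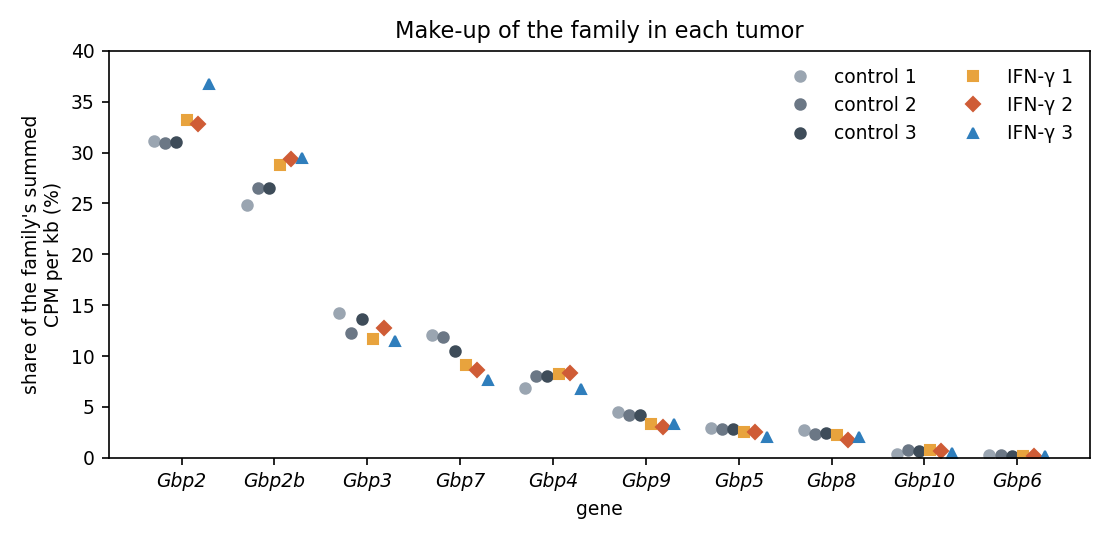
Share of each GBP gene in the summed CPM per kilobase of the 10 genes, in percent, with 1 point per tumor. The shares of Gbp2 and Gbp2b are higher, and those of Gbp7, Gbp9, Gbp5 and Gbp8 lower, in each of the 3 IFN-γ tumors than in the 3 controls.

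The levels of the 10 genes moved together over the tumors. Pearson's r of log2(CPM + 0.5) between pairs of members ran from 0.868 for Gbp2 and Gbp7 to 0.999 for Gbp2 and Gbp2b, with a median of 0.961 over 45 pairs. These values describe 6 tumors, and all pairs share the high libraries IFN-γ 1 and 2. Among 11319 genes of at least 5 CPM, those most like the mean of the members included Arhgap27, Gm4951 and Gm12250, with r from 0.998 to 0.999 over the 6 tumors. Gm4951 and Gm12250 are immunity-related GTPases. Gm12250 was at 21.4, 42.5 and 32.8 CPM in the controls, against 76.4, 75.2 and 27.6 CPM in the IFN-γ tumors, again with IFN-γ tumors 1 and 2 above all controls.

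Other parts of the IFN-γ response were examined with 5 gene lists. Of the 14 genes for the receptor, kinases, transcription factors and feedback, 0 were called with all 6 tumors (edgeR). Without IFN-γ tumor 3, 3 were called higher, where 2.46% of all genes were. With all 6 tumors, 6 of the 14 had an unadjusted p under 0.05, all higher, where 5.74% of all genes did so in that direction, and DESeq2 called 1, Socs1 (named after its values were seen), and limma-voom 0. The median log2 fold change of the list was 0.26 and 0.42, in that order. The 3 called genes were Irf1, Ciita and Batf2. Irf1, the interferon regulatory factor that binds ISRE elements, was at 140, 211 and 161 CPM in the controls and at 308, 290 and 176 CPM in the IFN-γ tumors. Its log2 fold change was 0.60 ± 0.22 (edgeR adjusted p = 0.401), or 0.80 ± 0.15 (adjusted p = 0.0303) without IFN-γ tumor 3. Ciita, the activator of MHC class II genes, had a log2 fold change of 1.47 ± 0.26 (edgeR adjusted p = 0.0247) and Batf2 one of 0.97 ± 0.16 (adjusted p = 0.0201) without IFN-γ tumor 3. With all tumors they were at 1.12 ± 0.42 and 0.74 ± 0.25 (edgeR adjusted p = 0.420 and 0.371). Jak1 and Nlrc5, the other abundant genes of the list, had log2 fold changes of 0.22 ± 0.08 and 0.52 ± 0.18 without that tumor (edgeR adjusted p = 0.247 and 0.178), and of 0.15 ± 0.09 and 0.29 ± 0.26 with it (adjusted p = 0.634 and 0.770). Socs1 was at 17.8, 17.1 and 17.2 CPM in the controls and at 25.3, 23.5 and 27.1 CPM in the IFN-γ tumors. Unlike the GBPs, Socs1 was above every control in IFN-γ tumor 3 too. Its log2 fold change was 0.54 ± 0.10 (edgeR adjusted p = 0.141), or 0.48 ± 0.11 (adjusted p = 0.0535) without IFN-γ tumor 3.

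Many immunity-related GTPases are smaller than GBPs, are induced by IFN-γ and act beside GBPs at pathogen vacuoles. This does not hold for every gene of the list. Of 15 listed genes, Gvin1 and Irgq included, 14 were tested, and Irgc1 had 0 counts in every tumor. Gvin1 and Irgq had log2 fold changes of 0.19 and 0.12 with all tumors (edgeR adjusted p = 0.902 and 0.782). With all 6 tumors edgeR, DESeq2 and limma-voom each called 0 of 14, and 9 of 14 had an unadjusted edgeR p under 0.05, all higher, against the same 5.74% of all genes. The median log2 fold change was then 0.72. Without IFN-γ tumor 3, 9 of 14 were called higher, against 2.46% of all genes, with a median of 1.03. Iigp1, the one with the highest CPM, was at 159, 284 and 249 CPM in the controls and at 534, 513 and 219 CPM in the IFN-γ tumors, the same pattern as the GBPs. The log2 fold changes of Iigp1, Irgm1 and Igtp without IFN-γ tumor 3 were 1.17 ± 0.20, 1.07 ± 0.14 and 1.23 ± 0.17 (edgeR adjusted p = 0.0226, 0.0123 and 0.0132). With all tumors they were 0.87 ± 0.33, 0.80 ± 0.28 and 0.93 ± 0.31 (edgeR adjusted p = 0.420, 0.389 and 0.371). The other 6 genes called were Irgm2, Tgtp1, Tgtp2, Ifi47, Gm4951 and Gm12250, with log2 fold changes of 0.85 to 1.33, or 0.61 to 1.04 with all tumors (edgeR adjusted p from 0.367 to 0.476).

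The machinery that GBPs work with was described in the same way. Of 12 listed genes for inflammasomes and pyroptosis, 11 were tested, and Irgb10 was not found under that symbol, so it is in neither count nor median. Of the 11 tested, 2 were called higher without IFN-γ tumor 3 and 0 with all tumors, with medians of 0.37 and 0.17. Without that tumor, 2.46% of all genes were called higher. With all tumors, 2 of the 11 had an unadjusted edgeR p under 0.05, both higher, and DESeq2 and limma-voom called 0. The 2 called genes were Ifi204 and Gsdmd, the pore-forming effector of pyroptosis, with log2 fold changes of 0.41 ± 0.08 and 0.40 ± 0.08 (edgeR adjusted p = 0.0308 and 0.0437), or 0.33 ± 0.09 and 0.34 ± 0.09 with all tumors (adjusted p = 0.317 and 0.299). Casp1, the inflammasome protease, had one of 0.30 ± 0.08 (edgeR adjusted p = 0.0966), or 0.17 ± 0.13 with all tumors (adjusted p = 0.702). In IFN-γ tumor 3, Ifi204 and Gsdmd were above every control, at 120 and 79.0 CPM, and Casp1 was below every control, at 58.3 CPM. Of 13 genes for conjugation of ATG8 proteins, which help deliver GBPs to vacuoles, only Ube2l6 was called, without IFN-γ tumor 3, at 0.65 ± 0.08 (edgeR adjusted p = 0.00964), against 0.51 ± 0.14 (adjusted p = 0.290) with all tumors. With all tumors edgeR and limma-voom called 0 of the 13, DESeq2 called 1, and 2 had an unadjusted edgeR p under 0.05, both higher. Counts of 2 among 11 or 13 genes are few to set against the 5.74% of all genes. Ube2l6 encodes the conjugating enzyme for the ubiquitin-like protein ISG15 and was placed on this list by hand. In IFN-γ tumor 3 it was at 169 CPM, against 144, 152 and 159 CPM in the controls. Gabarap and Gabarapl1 had log2 fold changes of 0.21 ± 0.10 and 0.08 ± 0.08 without IFN-γ tumor 3 (edgeR adjusted p = 0.350 and 0.708), and 0.22 ± 0.09 and 0.16 ± 0.09 with all tumors (adjusted p = 0.465 and 0.577). Of 6 genes for prenylation and processing of proteins such as Gbp2 and Gbp5, 0 were called in either fit. Fnta, Pggt1b and Zmpste24 among them had log2 fold changes from -0.11 to 0.01 without IFN-γ tumor 3 and from -0.13 to 0.07 with all tumors. At an unadjusted p under 0.05 the prenylation list also had 0 of 6 genes in either fit, and DESeq2 and limma-voom called 0.

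Ifng itself, the gene of the administered cytokine in the host, was read 7, 13 and 23 times in the controls, against 27, 41 and 5 counts in the IFN-γ tumors. IFN-γ tumor 3 had the fewest reads of Ifng and IFN-γ tumors 1 and 2 the most. The log2 fold change was 0.81 ± 0.67 (edgeR adjusted p = 0.747), or 1.27 ± 0.48 (adjusted p = 0.227) without IFN-γ tumor 3, and the groups overlapped with all tumors. Ifng was chosen after its values were seen.

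Sums of macrophage, dendritic cell, T cell, NK cell and neutrophil markers were, like those of the GBPs, highest in IFN-γ tumors 1 and 2. The summed level of 10 macrophage markers was 2176 to 2406 CPM in the controls, against 3074, 3360 and 2311 CPM in the IFN-γ tumors. In IFN-γ tumors 1 and 2, 8 of these 10 markers were above every control, which held for 18.1% of all genes tested. Without IFN-γ tumor 3, 6 of the 10 were called higher (edgeR), where 2.46% of all genes were. With all tumors, edgeR and limma-voom called 0 of the 10 and DESeq2 2, where DESeq2 called 125 of 15114 genes higher. An unadjusted edgeR p under 0.05 was reached by 7, 6 of them higher and 1 lower. In the higher direction 5.74% of all genes reached it. Mrc1, the mannose receptor, was at 432, 390 and 407 CPM in the controls, against 368, 369 and 321 CPM in the IFN-γ tumors, and Cd14 was also below every control in IFN-γ tumors 1 and 2. The summed level of 8 T cell markers was 59.4 to 88.8 CPM in the controls, against 112, 135 and 45.5 CPM in the IFN-γ tumors. For 5 NK cell markers the sum was 15.7 to 29.3 CPM in the controls, against 33.9, 39.3 and 12.2 CPM in the IFN-γ tumors, and Klra8 was at or under 3 counts. In both lists IFN-γ tumor 3 was below every control. Summed dendritic cell markers were at 33.6 to 52.3 CPM in the controls, against 66.3, 70.1 and 40.2 CPM in the IFN-γ tumors. Above every control in IFN-γ tumors 1 and 2 were 5 of 7 dendritic cell, 5 of 8 T cell and 2 of 5 NK cell markers. In either edgeR fit, 0 markers of these lists were called higher. Neutrophil markers were at 28.9 to 37.3 CPM in the controls, against 44.2, 46.9 and 36.4 CPM in the IFN-γ tumors. Only 1 of these 6 markers, Csf3r, was above every control in IFN-γ tumors 1 and 2. Csf3r was at 21.3, 25.3 and 22.3 CPM in the controls, against 38.8, 38.6 and 24.0 CPM in the IFN-γ tumors. Ly6g was at or under 3 counts. The B cell marker sum was 7.99 to 12.5 CPM in the controls, against 6.78, 7.99 and 6.55 CPM in the IFN-γ tumors, and the groups touched. Its markers did not move together. Pax5 was lower in each IFN-γ tumor than in every control. Cd79b was higher, at 4.06, 3.66 and 3.94 CPM in the controls, against 5.62, 4.64 and 4.88 CPM in the IFN-γ tumors. In either edgeR fit, 0 B cell markers were called higher. Adipocyte markers were at 102 to 144 CPM in the controls, against 143, 194 and 163 CPM in the IFN-γ tumors. Without IFN-γ tumor 3, 4 of 6 were called higher (edgeR), against the same 2.46% of all genes. With all tumors edgeR and limma-voom called 0 of the 6 and DESeq2 4, and 5 had an unadjusted edgeR p under 0.05. Fibroblast markers were at 374 to 469 CPM in the controls, against 471, 526 and 525 CPM in the IFN-γ tumors. Of these 6 markers, 1 was above every control in IFN-γ tumors 1 and 2. Endothelial markers were at 0.937, 0.785 and 0.711 times their control mean in IFN-γ tumors 1, 2 and 3.

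Relative to macrophage markers, the GBP sum was still highest in IFN-γ tumors 1 and 2. The ratio of the GBP sum to the macrophage sum was 0.452 to 0.748 in the controls, against 1.03, 0.933 and 0.584 in the IFN-γ tumors. Relative to the T cell markers it was 16.6 to 20.3 in the controls, against 28.1, 23.2 and 29.7 in the IFN-γ tumors. Relative to the endothelial markers it was 4.15 to 5.98 in the controls, against 12.1, 14.4 and 6.83 in the IFN-γ tumors. On these 2 scales all 3 IFN-γ tumors were above the controls. In IFN-γ tumor 3 the GBP sum was 0.971 times the control mean, and the T cell and endothelial sums were below every control. The part of these cell types in the GBP difference was not tested beyond these ratios.

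**Figure D4:**
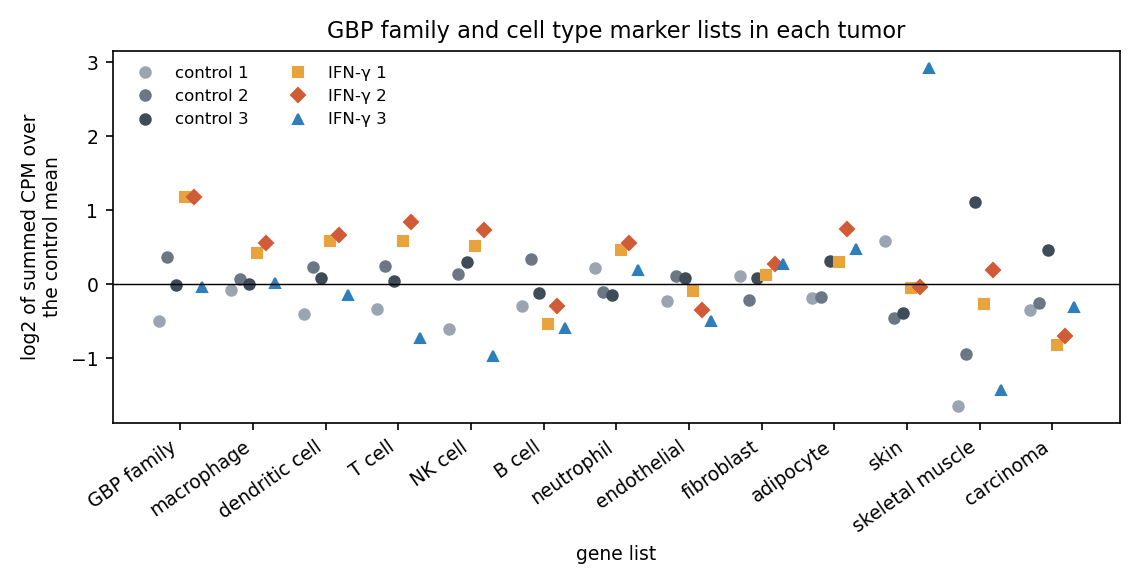
Log2 of the summed CPM of the GBP genes and of 12 cell type marker lists in each tumor, relative to the mean of the 3 controls, which is at 0. IFN-γ tumors 1 and 2 lie above the controls for the GBP, macrophage, dendritic cell, T cell, NK cell, neutrophil and fibroblast sums. The fibroblast sum of IFN-γ tumor 3 is also above the controls, and its skin marker sum is 7.59 times the control mean.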

How the data were processed

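RNA libraries of 6 subcutaneous CT26.WT tumors were compared, 3 of the control and 3 of the IFN-γ group, grouped by the sample titles. The table the authors deposited holds raw read counts for each gene, 15759300 to 17559680 per tumor. The submitters' processing notes name HISAT2 and mm10. The counting program, strandedness and annotation release are not given in the sources used here, so reads of close paralogs and overlapping genes could be split or lost in a way that cannot be checked. Of the gene identifiers, 99.5% were found in GENCODE M21, which supplied exon lengths and positions. Dose, route and age come from the study's methods. Intervals and floors cover counting error only.

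The test was the quasi-likelihood test of edgeR 4.0.16 under R 4.3.3 on genes kept by filterByExpr, with TMM factors. P-values were adjusted by Benjamini-Hochberg over all genes and called under 0.05. The standard error was the log2 fold change divided by the square root of the F statistic. Alternatives were DESeq2 1.42.0, limma 3.58.1 (voom), library size only, upper-quartile factors, no filter, a filter of at least 1 CPM in 3 tumors, a replicate block and leaving out each tumor. DESeq2 and limma-voom without IFN-γ tumor 3, and the ratio of Gbp2 to Gbp7 with each tumor left out, were added after seeing the data. Scripts were tested on simulated data. No pair of libraries differed by less than sampling noise. By chi-squared per gene, IFN-γ tumors 1 and 2 were the closest pair, at 6.17. The other pairs lay between 11.2 and 33.0. Without IFN-γ tumor 3, the spread within the IFN-γ group comes from this closest pair alone.

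The genes and the lists were chosen with earlier results of these data known. Lists of pathway genes and markers were written by hand from general knowledge. Named were all Gbp rows, in each pathway list the 3 genes with the highest mean CPM and any past the threshold, the 5 genes most like the members (some of which are not reported here), and marker genes beside their list. The exact test planned for members under the filter was not needed.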

Additional observations from a re-analysis of the deposited data

How the results depend on the processing

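Over 15 alternatives the 10 GBP genes gave 150 log2 fold changes, all above 0, from 0.28 to 1.54. Of these, 126 kept their side of the threshold, 24 newly passed it and 0 lost it. With no filter on low counts, 2 members were called higher, Gbp2 and Gbp2b (edgeR adjusted p = 0.00699 and 0.0115), where 0.558% of all genes were. Without IFN-γ tumor 3 there were 6, where 381 of 15487 genes were called higher. On those 5 tumors DESeq2 and limma-voom called 8 each, where 624 and 422 of 15487 genes were called higher. Leaving out any 1 tumor gave 0 to 6 members, the 6 only without IFN-γ tumor 3. The cause was not tested. In the other settings, DESeq2 and limma-voom on all 6 tumors included, 0 members were called higher, and 0 were called lower in any.

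Over all genes, 12 were called higher and 5 lower. The counts were 125 and 71 with DESeq2, 150 and 70 with no filter, 624 and 249 with DESeq2 and 422 and 107 with limma-voom on the 5 tumors without IFN-γ tumor 3, and 7 higher with library size only and 3 lower with limma-voom. Leaving out 1 tumor gave 4 to 381 higher and 2 to 112 lower genes, the highest of each without IFN-γ tumor 3. The labels do not say whether replicate numbers pair the tumors. Same-numbered tumors had correlations of deviations from the group means of -0.24, -0.0047 and -0.22. With 3 tumors in a group these values cannot decide whether tumors were paired. A replicate block gave 5 higher and 2 lower genes and 0 members. Shares on CPM in place of CPM per kilobase moved for 8 of 10 members. Depth limits Gbp6 and Gbp10 most, with 691 and 1447 counts in all against 4066 or more for the other members.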
